A study of Mus musculus with 12 samples.

Results

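Endothelial genes were followed in cultures of mouse cardiac fibroblasts. The set was a list of 33 genes known from blood vessel endothelium, and a gene was included where a probe set of the array carried its symbol in the platform annotation. This held for 31 of the 33 genes, each with a single probe set, out of 19505 named genes on the array. Egfl7 and Rasip1 were not analysed here. The fibroblasts came from hearts of wildtype C57BL/6J mice of 1 to 7 days of age, had become myofibroblasts over 10 to 14 days of culture and were treated for 8 h. The 4 groups were carrier alone, sCD74 at 40 nM, MIF at 8 nM, and both proteins at these doses. MIF is macrophage migration inhibitory factor, a cytokine, and sCD74 is the soluble form of its receptor CD74. Each group had 3 arrays, numbered 1 to 3 in the sample titles, and the 4 arrays that share a number also share a code there. The question was how much endothelial RNA the fibroblast cultures still held under each replicate number, and whether it differed between treatments within a number.

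Endothelial cells line blood vessels. They are held together by junction proteins such as VE-cadherin, depend on the growth factor VEGF and on angiopoietins acting through receptor tyrosine kinases, and are specified by transcription factors of the ETS and SOX families. The heart is rich in capillaries, and cells isolated from it can include endothelial cells. The labels describe isolation from whole hearts and name no sort. In RNA from a whole culture, fewer cells of a type and less RNA per cell cannot be told apart.

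Promoter sequences of 4 of the genes are shown because their transcripts moved between replicate numbers, Kdr, Tie1 and Emcn in one direction and Cd34 in the other. They come from RefSeq on build GRCm38.p6 and run from 250 bases before to 50 bases after the annotated start, 5′ to 3′ on the strand of the gene. Of the 33 listed genes, 16 had an entry. Kdr lies at chr5:75978406-75978705 on the minus strand, Tie1 at chr4:118489800-118490099 on the minus strand, Emcn at chr3:137340828-137341127 on the plus strand and Cd34 at chr1:194938571-194938870 on the plus strand. Capitals mark GGAA and its reverse complement TTCC, the core bound by ETS factors.
Kdr: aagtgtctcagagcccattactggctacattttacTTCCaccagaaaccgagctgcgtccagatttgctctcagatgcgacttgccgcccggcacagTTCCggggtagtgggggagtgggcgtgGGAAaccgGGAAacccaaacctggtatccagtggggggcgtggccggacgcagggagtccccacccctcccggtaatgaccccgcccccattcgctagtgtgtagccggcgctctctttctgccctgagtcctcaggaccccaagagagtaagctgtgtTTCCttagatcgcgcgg
Tie1: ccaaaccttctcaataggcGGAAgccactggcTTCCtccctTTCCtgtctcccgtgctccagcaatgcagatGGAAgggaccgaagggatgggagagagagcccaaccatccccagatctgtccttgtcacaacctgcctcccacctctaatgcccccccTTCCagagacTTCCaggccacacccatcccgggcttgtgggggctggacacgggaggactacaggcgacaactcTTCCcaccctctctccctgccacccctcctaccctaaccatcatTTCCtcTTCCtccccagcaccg
Emcn: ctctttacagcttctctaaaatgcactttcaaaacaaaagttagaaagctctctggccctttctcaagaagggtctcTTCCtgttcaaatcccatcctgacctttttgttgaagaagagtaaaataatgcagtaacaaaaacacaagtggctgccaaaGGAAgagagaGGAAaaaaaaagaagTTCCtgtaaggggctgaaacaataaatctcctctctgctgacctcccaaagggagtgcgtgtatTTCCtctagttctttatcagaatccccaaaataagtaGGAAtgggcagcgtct
Cd34: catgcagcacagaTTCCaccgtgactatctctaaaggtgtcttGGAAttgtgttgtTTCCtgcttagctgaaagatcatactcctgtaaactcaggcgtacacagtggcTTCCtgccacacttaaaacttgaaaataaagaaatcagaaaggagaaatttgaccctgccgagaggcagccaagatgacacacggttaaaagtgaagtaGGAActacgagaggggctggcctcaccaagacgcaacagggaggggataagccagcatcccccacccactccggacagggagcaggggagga
The core occurred 5 times in the Kdr window, 9 times in Tie1, 6 times in Emcn and 5 times in Cd34. At least 1 match was found in 16 of the 17 windows of the 14 measured genes with an entry, beside 96.0% of the 32851 windows in the table, so this short motif is near universal at this length. A SOX motif, ATTGTT on either strand, occurred in 3 of the 17 windows and in 10.7% of all windows. A GATA motif, AGATAA on either strand, occurred in 2 of the 17 and in 11.2% of all, and a forkhead motif, TGTTTAC on either strand, in 0 of the 17 and 3.6% of all. The searched motifs share no full match with each other. A match describes letters only.

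The labelled cell type was checked on its markers. The mean log2 value of 10 fibroblast genes lay between 15.36 and 15.59 on the 12 arrays. Macrophage genes were also well above background, with a mean of 14 genes between 12.35 and 13.85 and, for Lyz2, means of 16.94 to 17.45 over the numbers. The median log2 value of all probe sets lay between 8.01 and 8.14 per array. The median of the negative control probe sets, used here as the background level, lay between 7.37 and 7.90. Values are the authors' deposited log2 values, which reach 18.39 and so are not on a plain scanner scale. Differences are therefore given in log2 units and not as folds. Whether the replicates are separate isolations is not said in the labels. The p-values then rest on array-to-array spread alone, which may be technical, and those between replicate numbers compare these 3 numbered sets of cultures.

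Some of the endothelial genes lay above the background median in every culture. Of the 31 genes, 18 lay above the negative control median of the array on all 12 arrays, among them the VE-cadherin gene Cdh5, Pecam1, Kdr, Emcn and Tie1. That median is a low bar. The share of all genes that passed this bar, or the next, on all 12 arrays is not given here. Against the 95th percentile of the negative controls, which lay between 10.79 and 11.29, 3 genes passed on all 12 arrays: Cd34, Eng and Fabp4. These 3 are also known from fibroblasts, macrophages or fat cells. Sox17, Sox18, Clec14a and Aplnr lay below the negative control median on every array, and 8 genes, with Cldn5, Podxl, Mmrn2 and Nos3 besides, had a mean over 12 arrays below 7.53, the mean of those medians. On the 4 arrays of number 1, 24 to 27 of the 31 genes lay above the negative control median, on those of number 2, 19 to 22, and on those of number 3, 19 to 23. The share of all genes above it was 53.5% to 60.1% per array. Above the 95th percentile lay 9 to 13 endothelial genes in number 1, 4 to 5 in number 2 and 5 to 7 in number 3. The share of all genes above it was 21.9% to 27.0% per array. Of the 31 genes, a larger share than this passed in number 1, but not in numbers 2 and 3.

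Most of these genes differed between the replicate numbers. In the cultures of number 1, 23 of the 31 genes passed limma's test as higher than in numbers 2 and 3 and 2 as lower, and 6 did not pass. Over all 19505 genes, 7.03% passed as higher and 9.39% as lower. The median log2 difference over the 31 genes was +0.90, against +0.02 over all genes, with a range from -0.59 to +2.67. The 4 arrays of number 1 lay above all 8 others for 20 of the 31 genes, below them for 1 and overlapped them for 10. Among all genes, 4.1% were above and 5.71% below in this way. The median difference was of like size in each treatment taken alone: +0.80 for carrier, +1.01 for sCD74, +0.89 for MIF and +0.79 for the co-treatment, with 27, 28, 28 and 29 of the 31 genes higher. For 28 of the 31 genes the range across numbers within a treatment exceeded the range across treatments within a number, comparing medians of the ranges, as it did for 45.4% of all genes.

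Number 3 lay between the others. For 22 of the 31 genes the means fell in the order number 1, number 3, number 2, an order found in 24.1% of all genes. In the comparison of number 3 with number 2, 7 of the 31 genes passed as higher and 0 as lower, with a median difference of +0.26 against -0.01 over all genes. Over all genes 0.441% passed as higher and 0.708% as lower. The count of 7 fell to 4 without carrier replicate 2, and Cdh5, Kdr, Emcn and Adgrf5 passed without any 1 of the 12 arrays. The arrays of number 3 were all above those of number 2 for 10 of the 31 genes and all below for 3, Flt1, Cd34 and Clec14a, beside 5.5% and 4.94% of all genes. Taken against each of the others, number 1 was higher than number 2 in 23 genes and lower in 2, beside 7.38% and 9.5% of all genes. It was higher than number 3 in 24 and lower in 1, beside 3.75% and 5.48% of all genes.

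**Figure D1:**
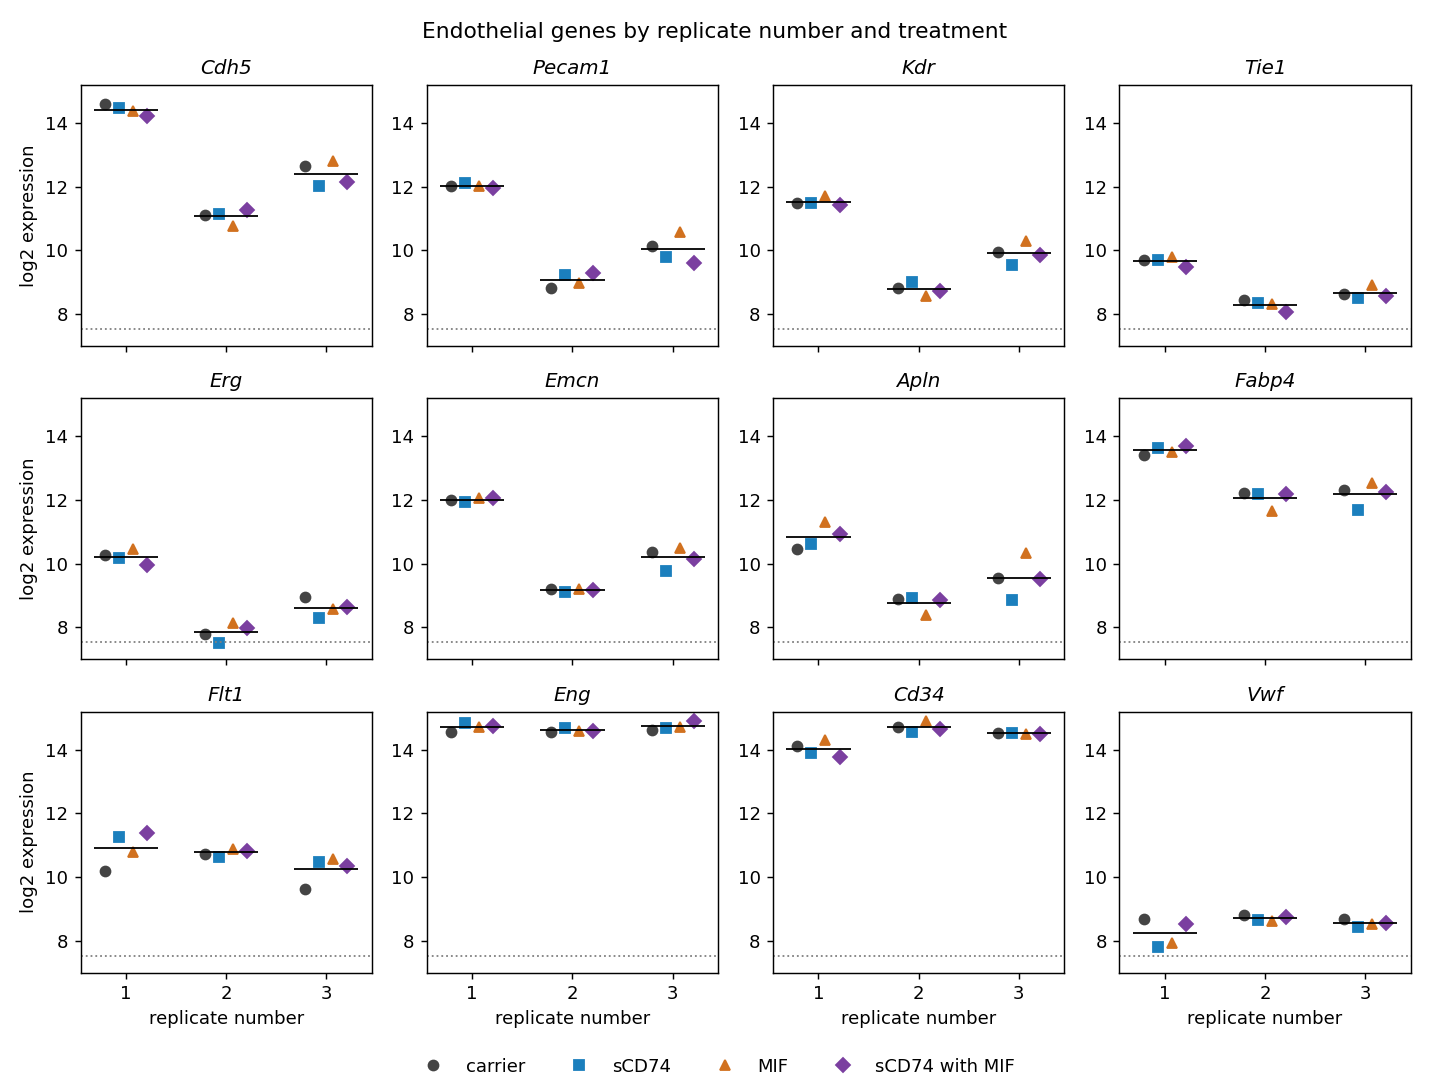
Deposited log2 expression (y axis) of 12 endothelial genes by replicate number (x axis), 1 point per array with the treatment given by colour and shape, a bar for the mean of the 4 arrays of a number, and a dotted line at the mean negative control median of 7.53. Cdh5, Pecam1, Kdr, Tie1, Erg, Emcn, Apln and Fabp4 are highest in number 1 under all 4 treatments, Eng and Flt1 are not, and Cd34 is lowest there.

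All 5 measured junction and adhesion genes passed as higher in number 1. Cdh5 encodes VE-cadherin, the adhesion molecule of endothelial adherens junctions. With carrier, sCD74, MIF and both, in that order here and below, it stood at log2 values of 14.59, 14.47, 14.39 and 14.22 in number 1. It stood at 11.12, 11.14, 10.78 and 11.28 in number 2 and at 12.64, 12.02, 12.82 and 12.17 in number 3. The 3 sets of arrays did not overlap. Number 1 exceeded the mean of the others by +2.67 ± 0.15 (SE, adjusted p = 1.1e-06, limma), the largest positive difference among the 19505 genes, and number 3 exceeded number 2 by +1.33 ± 0.17 (adjusted p = 0.00284). Pecam1, the platelet and endothelial adhesion molecule CD31, stood at 12.03, 12.13, 12.01 and 11.97 in number 1, 8.82, 9.24, 8.97 and 9.30 in number 2 and 10.15, 9.80, 10.57 and 9.60 in number 3. Its arrays were again apart in the same order, with differences of +2.48 ± 0.16 (adjusted p = 2.2e-06) and +0.95 ± 0.18 (adjusted p = 0.0292). The call between numbers 3 and 2 failed on leaving out carrier replicate 2 (0.125) or 3 (0.122), sCD74 replicate 2 (0.0817) or 3 (0.0507) and MIF replicate 2 (0.0754) or 3 (0.0554), the values being adjusted p. The other 3 rose less. Icam2, a ligand of leukocyte integrins, differed by +1.16 ± 0.10, Esam, an adhesion molecule of tight junctions, by +0.54 ± 0.10, and the tight junction gene Cldn5, whose mean lay below background, by +1.00 ± 0.11.

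Of the 5 growth factor receptors, Kdr and Tie1 passed as higher in number 1. Kdr, the main signalling receptor for VEGF, stood at 11.50, 11.49, 11.72 and 11.43 in number 1, 8.81, 9.00, 8.58 and 8.72 in number 2 and 9.96, 9.56, 10.30 and 9.85 in number 3. It showed no overlap between numbers and differed by +2.19 ± 0.13 (adjusted p = 1.4e-06) between number 1 and the others and by +1.14 ± 0.15 (adjusted p = 0.00303) between numbers 3 and 2. Tie1, an orphan receptor that acts with Tek, stood at 9.69, 9.71, 9.80 and 9.47, then 8.46, 8.36, 8.33 and 8.06, then 8.63, 8.51, 8.91 and 8.56 in numbers 1, 2 and 3. It was higher in number 1 by +1.19 ± 0.09 (adjusted p = 6.1e-06). The other 3 genes of this role did not pass in either comparison. Tek, the angiopoietin receptor, ran from 9.65 to 10.25 over the 12 arrays and differed by +0.28 ± 0.09 (adjusted p = 0.0533). Ptprb, an endothelial phosphatase that restrains Tek, ran from 10.87 to 11.90 and differed by +0.04 ± 0.19 (adjusted p = 0.925). Flt1, a VEGF receptor that also exists as a soluble decoy, stood at 10.20, 11.26, 10.78 and 11.38 in number 1, 10.73, 10.64, 10.90 and 10.82 in number 2 and 9.61, 10.46, 10.57 and 10.36 in number 3. Its order differed from that of Kdr: all arrays of number 3 lay below those of number 2, with a difference of -0.52 ± 0.18 that did not pass (adjusted p = 0.197), and number 1 overlapped both (adjusted p = 0.110 against the others). Without carrier replicate 2 the Flt1 difference for number 1 was +0.50 (adjusted p = 0.0226).

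All 4 transcription factors of the set passed as higher in number 1. Erg, an ETS factor that maintains endothelial identity, stood at 10.28, 10.19, 10.46 and 9.95 in number 1, 7.80, 7.52, 8.13 and 7.98 in number 2 and 8.95, 8.28, 8.59 and 8.63 in number 3. The 3 sets did not overlap, and the differences were +1.99 ± 0.12 (adjusted p = 1.6e-06) and +0.76 ± 0.14 (adjusted p = 0.0231). The call between numbers 3 and 2 was lost without carrier replicate 2 (adjusted p = 0.104) or 3 (0.101), sCD74 replicate 2 (0.119) or 3 (0.0611), or co-treated replicate 3 (0.0690). Sox7, Sox17 and Sox18, related SOX factors of vessel formation, differed by +0.74 ± 0.10, +0.49 ± 0.10 and +1.04 ± 0.17 between number 1 and the others. Sox17 and Sox18 were below the negative control median on all 12 arrays. The size of their differences is therefore that of values at background level.

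Among the 11 surface glycoproteins and receptors, 8 passed as higher in number 1 and 1 as lower. Emcn, endomucin, a sialomucin of capillary and venous endothelium, stood at 12.00, 11.95, 12.06 and 12.06 in number 1, 9.21, 9.10, 9.20 and 9.19 in number 2 and 10.36, 9.79, 10.49 and 10.15 in number 3. Its differences were +2.33 ± 0.10 (adjusted p = 1.8e-07) and +1.02 ± 0.11 (adjusted p = 0.00117). The arrays of each number lay apart from those of the others. Adgrf5, an adhesion G protein-coupled receptor, stood at 11.98, 11.92, 11.91 and 11.83, then 9.09, 9.03, 8.99 and 9.13, then 9.97, 9.51, 10.13 and 9.79 in numbers 1, 2 and 3, and differed by +2.46 ± 0.10 and +0.79 ± 0.12. Adgrl4, a related receptor of angiogenic endothelium, stood at 13.04, 12.89, 12.92 and 12.88, then 10.22, 9.89, 9.80 and 10.45, then 11.35, 10.65, 11.57 and 10.98, and differed by +2.32 ± 0.15 and +1.05 ± 0.17. Both passed in both comparisons, with adjusted p = 0.00821 for Adgrf5 and 0.0151 for Adgrl4 between numbers 3 and 2. The Adgrl4 call there was lost without carrier replicate 2 (0.0676) or 3 (0.0686) or sCD74 replicate 2 (0.0610). Smaller rises in number 1 were called for Gpihbp1, which carries lipoprotein lipase to the capillary lumen (+0.90 ± 0.09), the guidance receptor Robo4 (+0.83 ± 0.09), the sialomucin Podxl (+0.75 ± 0.13) and Ecscr (+0.71 ± 0.14). Clec14a, a C-type lectin, also passed (+0.33 ± 0.10, adjusted p = 0.0383), on values below background. Its call failed on leaving out carrier replicate 3 (0.0642), sCD74 replicate 1 (0.189), 2 (0.0794) or 3 (0.0717), MIF replicate 3 (0.0660) and co-treated replicate 1 (0.114) or 2 (0.0756).

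Cd34, Eng and Plvap departed from this pattern. Cd34, a sialomucin of endothelial and blood progenitor cells that is also found on fibroblasts, stood at 14.11, 13.89, 14.31 and 13.76 in number 1, 14.71, 14.55, 14.89 and 14.67 in number 2 and 14.54, 14.54, 14.49 and 14.49 in number 3. The arrays of number 1 all lay below the other 8, with a difference of -0.59 ± 0.09 (adjusted p = 0.00101). Eng, a TGF-beta co-receptor of endothelium that activated fibroblasts also carry, stood at 14.57, 14.83, 14.71 and 14.76 in number 1, 14.56, 14.67, 14.59 and 14.60 in number 2 and 14.63, 14.69, 14.72 and 14.90 in number 3. The numbers overlapped, and Eng differed by +0.05 ± 0.08 (adjusted p = 0.748). Plvap, which forms the diaphragms of fenestrated vessels, differed by +0.35 ± 0.12 and did not pass (adjusted p = 0.0639). It passed without carrier replicate 2 (+0.41, adjusted p = 0.0306) or MIF replicate 3 (+0.41, adjusted p = 0.0220).

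Of the 4 measured secreted and effector genes, 3 passed as higher in number 1 and Vwf as lower. Fabp4, a fatty acid binding protein of capillaries, fat cells and macrophages, stood at 13.40, 13.64, 13.51 and 13.69 in number 1, 12.22, 12.20, 11.67 and 12.20 in number 2 and 12.33, 11.68, 12.54 and 12.27 in number 3. It differed by +1.42 ± 0.15 (adjusted p = 6.9e-05), with numbers 2 and 3 overlapping. Mmrn2, a matrix protein of the vessel wall, stood at 8.04, 8.87, 8.59 and 8.97 in number 1, above background, and at 6.74, 7.17, 6.43 and 6.82 and 7.14, 6.99, 7.17 and 6.80 in numbers 2 and 3, below it. Its difference was +1.71 ± 0.16. Nos3, the endothelial nitric oxide synthase, differed by +1.01 ± 0.11 on values of which only 1 array lay above the negative control median. Vwf, von Willebrand factor, which binds platelets to injured vessels, stood at 8.68, 7.81, 7.92 and 8.52 in number 1, 8.81, 8.67, 8.63 and 8.75 in number 2 and 8.67, 8.45, 8.53 and 8.57 in number 3. Its difference of -0.40 ± 0.11 passed (adjusted p = 0.0320), but in number 1 the arrays of carrier and of both proteins reached the range of the other numbers. The call was lost without sCD74 replicate 1 (-0.29, adjusted p = 0.164), 2 (0.0679) or 3 (0.0599), or MIF replicate 1 (-0.32, 0.135), 2 (0.0557) or 3 (0.0633).

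Of the apelin pair, the ligand rose in number 1. Apln, the ligand, made by endothelial tip cells, stood at 10.47, 10.61, 11.31 and 10.92 in number 1, 8.91, 8.92, 8.38 and 8.86 in number 2 and 9.56, 8.85, 10.34 and 9.52 in number 3, with a difference of +1.66 ± 0.21 (adjusted p = 2.0e-04). Aplnr, the receptor, was below the negative control median on all 12 arrays and differed by +0.23 ± 0.14 (adjusted p = 0.321).

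**Figure D2:**
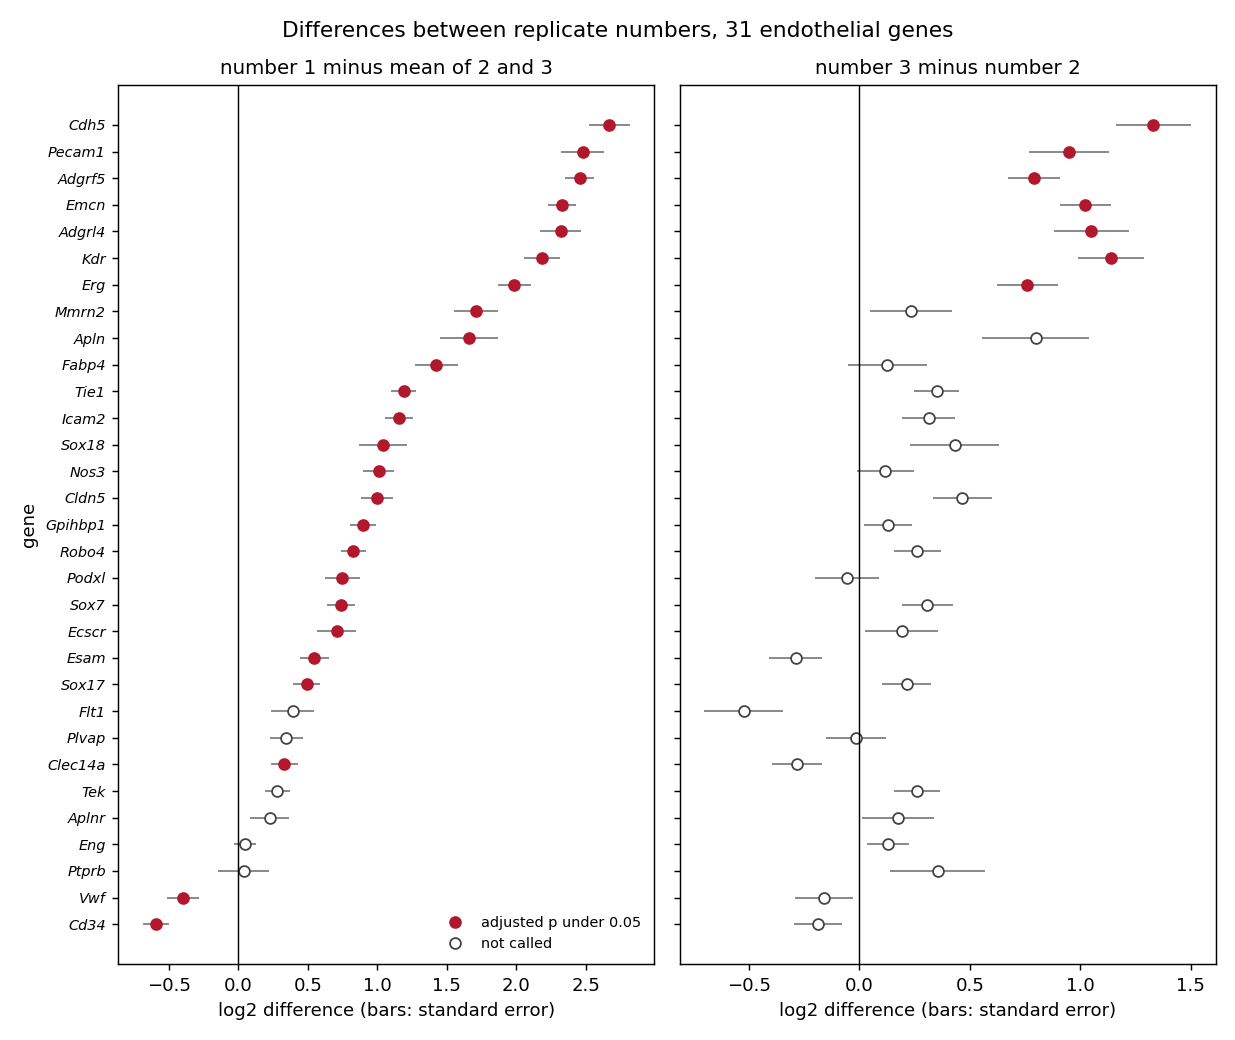
Log2 differences with standard errors (x axes) of the 31 endothelial genes (y axis), for number 1 minus the mean of numbers 2 and 3 on the left and number 3 minus number 2 on the right, over 12 arrays. Red points passed limma's test at an adjusted p under 0.05: 25 on the left, of which Cd34 and Vwf are below 0, and 7 on the right, all of them also called on the left.

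Further vessel genes from other lists were called in part. In the arterial and Notch list, 5 of 11 genes passed as higher in number 1 and 0 as lower. They include Efnb2, the ephrin of arterial endothelium (+2.14 ± 0.12), Dll4, a Notch ligand of arterial and tip cells (+2.28 ± 0.14), Bmx, a kinase of arterial endothelium (+1.52 ± 0.11), and the Notch ligand Jag1 (+0.49 ± 0.10). Dll4 stood at 11.08, 11.57, 11.33 and 11.17 in number 1, 8.53, 8.70, 8.33 and 8.96 in number 2 and 9.52, 9.40, 9.56 and 9.02 in number 3, without overlap between the numbers. Between numbers 3 and 2 the list had 2 calls, Efnb2 (+1.03 ± 0.14) and the receptor Notch1 (+0.86 ± 0.14). The mean of Notch1 in number 2 was 6.79, below the background level of 7.53. The Notch1 call was lost without carrier replicate 2 (adjusted p = 0.0594) or 3 (0.0755) or sCD74 replicate 2 (0.0732) or 3 (0.0609).

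Of 13 further endothelial genes, 6 passed as higher in number 1 and 3 as lower. Stab1, a scavenger receptor of sinusoidal endothelium that macrophages also carry, was lower (-1.16 ± 0.09), as were 2 transcription factors known from blood and endothelial cells, Fli1 (-0.36 ± 0.08) and Lmo2 (-0.37 ± 0.09), both named here after their values were seen. Myct1 (+0.90), Shank3 (+0.81) and Cyyr1 (+0.84) were higher. The means of Shank3 and Cyyr1 lay below 7.53, the background level, in numbers 2 and 3. Of a list of 9 vascular growth factors and co-receptors, most of them of VEGF and angiopoietin signalling, 4 were higher and 2 lower. One of the 4 was Pdgfb (+0.38), a ligand of PDGF receptors, and another Vegfa (+0.35), both named after their values were seen. Placental growth factor, Pgf, a ligand of Flt1, rose by +1.62 ± 0.16. Vegfb (-1.08 ± 0.19), another Flt1 ligand, and the co-receptor Nrp2 (-0.75 ± 0.13) were lower, and Vegfd was higher (+0.33 ± 0.08), a call lost without sCD74 replicate 1 (adjusted p = 0.0506) or co-treated replicate 1 (0.0600).

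The lymphatic list had 4 of 7 genes higher: Flt4, the receptor for VEGF-C (+0.66), the hyaluronan receptor Lyve1 (+0.92), Pdpn (+0.43) and Mmrn1 (+0.42). Pdpn fell short without sCD74 replicate 1 (0.0516), and Mmrn1, below background, when any 1 of 9 arrays was left out (adjusted p up to 0.191, without sCD74 replicate 1). Between numbers 3 and 2 Lyve1 passed as lower (-1.11), with means of 6.17 and 7.28 that both lie below 7.53. The capillary list had 2 genes higher, Rgcc (+0.60) and Tcf15 (+0.44), and 1 lower, the fatty acid transporter Cd36 (-0.56), of 8. Rgcc and Tcf15 lay below 7.53 in every number, and the Rgcc call was lost without MIF replicate 1 (0.0527). The venous and activation list had 4 of 8 higher and 1 lower, Icam1 (-0.52). The higher ones with the smallest p were the venous factor Nr2f2 (+0.48), P-selectin, Selp (+0.77), and Ackr1 (+0.42), whose mean lay below 7.53 in every number. These were lost without sCD74 replicate 1 (adjusted p = 0.0552, 0.0978 and 0.112), Nr2f2 also without MIF replicate 1 (0.0700) or co-treated replicate 1 (0.0828), and Selp (0.101) and Ackr1 (0.0508) without carrier replicate 1. Ackr1 was also lost without MIF replicate 1 (0.0509). None of the 5 endocardial genes passed (0 called, 1 with an unadjusted p under 0.05, limma).

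Other cell types also differed between the numbers. All 14 measured macrophage genes passed as lower in number 1, with a median of -1.07, led by Aif1 (-1.84), Csf1r (-1.64), Tyrobp (-1.45) and Adgre1 (-1.33). Their mean log2 value was 12.35 to 12.75 on the arrays of number 1, 13.59 to 13.85 in number 2 and 13.10 to 13.52 in number 3, the reverse of the order of the endothelial means, which were 9.79 to 9.97, 8.67 to 8.73 and 8.92 to 9.23. Cardiomyocyte genes followed another order. Their list mean was 9.27 to 9.47 in number 1, 9.46 to 9.57 in number 2 and 7.91 to 7.99 in number 3. Of 12, 5 passed as higher in number 1 than the mean of numbers 2 and 3, among them Nppa (+1.68), Pln (+1.64), Myh7 (+1.37) and Myl2 (+1.09). For Pln the means were 10.10, 10.38 and 6.52 in numbers 1, 2 and 3 and for Myl2 11.45, 11.90 and 8.81, so both were lower in number 1 than in number 2 and their calls come from the low number 3. The fifth, Actc1, had the same order. Nppa and Myh7 were highest in number 1, with means below 7.53 in numbers 2 and 3. In the comparison of numbers 3 and 2, 8 passed as lower in number 3, among them Pln (-3.86), Myl2 (-3.08), Myh6 (-2.97) and Tnnt2 (-1.78). Of the macrophage genes 1 was lower in number 3 than in number 2, Csf1r (-0.80), a call lost when carrier replicate 3 (0.0686), sCD74 replicate 2 (0.0782) or 3 (0.0646), or co-treated replicate 2 (0.0593) or 3 (0.0569) was left out, the values being adjusted p.

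Of the smooth muscle and pericyte list, 5 of 11 were higher in number 1. Mcam, which endothelium also carries, rose by +2.13, and the pericyte genes Rgs5, Kcnj8 and Abcc9 by +1.04, +0.85 and +1.15. The means of Rgs5 and Abcc9 lay below 7.53 in numbers 2 and 3. Of 10 fibroblast genes, 1 passed, Acta2 (+0.38), which fell short without sCD74 replicate 1 (0.0736) or co-treated replicate 1 (0.0601). Of 8 epicardial genes, Tbx18 (+0.41) and Wt1 (+0.39) were higher. The means of Wt1 lay below 7.53 in every number. Tbx18 fell short without sCD74 replicate 1 (0.0797) or MIF replicate 1 (0.0861), and Wt1 without co-treated replicate 1 (0.0957). Of 3 Schwann cell genes Cdh19 was lower (-0.42), a call lost without any 1 of 4 arrays (adjusted p up to 0.122, without carrier replicate 1). In the platelet and erythroid list Pf4 was lower (-0.60), in the fat cell list Pparg was lower (-0.75), and 0 of 9 lymphocyte genes were called, with 1 at an unadjusted p under 0.05 (limma). The part that these other cell types have in the endothelial differences was not tested.

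**Figure D3:**
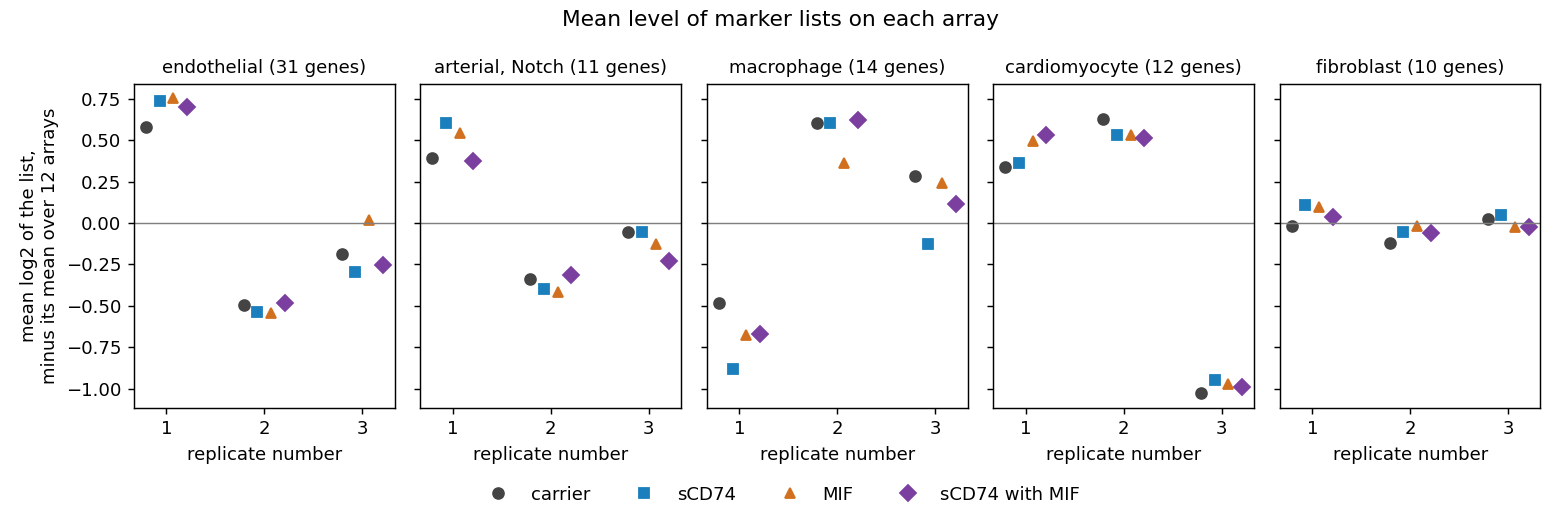
Mean log2 value of 5 marker lists on each of the 12 arrays (y axis, after subtracting the mean of the list over the arrays) by replicate number (x axis), with the treatment given by colour and shape. The endothelial and arterial lists are highest in number 1, the macrophage list lowest there, the cardiomyocyte list lowest in number 3, and the fibroblast list varies least.

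The endothelial genes varied together over the 12 arrays. Of the 465 pairs, 403 had a correlation above 0, with a median Pearson r of 0.70. After subtracting the mean of each number the median was 0.11, and 283 pairs lay above 0. These values describe 12 arrays, of which those of a number share a code, and pairs drawn from all genes are not given beside them. Icam2, Pecam1, Adgrf5 and Emcn tracked the mean of the other genes at r = 0.98, 0.98, 0.98 and 0.97, while Cd34 stood at -0.90 and Vwf at -0.75. Within numbers the highest values were those of Apln (0.81), Kdr (0.70), Plvap (0.69), Emcn (0.67), Adgrf5 (0.65) and Pecam1 (0.64).

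The 10 named genes outside the set with the highest correlation with the mean of the standardized endothelial genes over the 12 arrays were Frzb (r = 0.99), Mcam (0.98), Trp53i11 (0.98), Kit (0.98), Yes1 (0.98), Inhba (0.98), Dll4 (0.98), Il6 (0.98), Csn3 (0.98) and Plk2 (0.98). Within numbers their correlations ran from 0.33 for Yes1 to 0.89 for Trp53i11. Mcam and Dll4 are known from endothelium, and Kit, the stem cell factor receptor, from blood and endothelial progenitors. Trp53i11 stood at 15.56, 15.58, 15.80 and 15.60 in number 1, 12.76, 12.67, 12.51 and 12.82 in number 2 and 13.70, 13.17, 14.22 and 13.49 in number 3. Frzb, a secreted Wnt antagonist, stood at 15.51, 15.68, 15.59 and 15.68, then 14.81, 14.76, 14.87 and 14.77, then 14.94, 14.84, 15.17 and 14.93. All 10 were higher in number 1, by +0.64 (Yes1) to +2.47 (Trp53i11). This direction followed from the choice, since the endothelial mean used to pick them was itself highest in number 1. Likeness here says only that the values move together over these arrays.

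The treatments were compared to see whether sCD74, MIF or both altered the endothelial genes. No endothelial gene passed limma's test in any treated group against carrier, in all MIF cultures against those without, in all sCD74 cultures against those without, or for the departure of co-treatment from the sum of the single effects. The count was 0 of 31 in each, with 0, 0, 1, 0, 0 and 0 at an unadjusted p under 0.05. Over all 19505 genes 0% passed in each of the 6 comparisons. The spread in this fit includes the differences between replicate numbers. For Cdh5 the standard deviation of the 3 carrier arrays was 1.74, beside a median range of 0.50 across treatments within a number. For such genes 0 calls do not exclude a change within numbers. With the replicate number as a block, 0 of the 31 passed in each comparison, and 0.00513% of all genes passed over all MIF cultures. The block counts at an unadjusted p under 0.05 are given in the last paragraph. The median difference from carrier over the 31 genes was -0.03 for sCD74, +0.09 for MIF and +0.00 for the co-treatment. Over all genes it was +0.01 with MIF and nearer to 0 in the other comparisons. Leaving out 1 array turned the sign of the median in each of these comparisons, for instance to +0.27 with sCD74 without carrier replicate 1 and to -0.20 with MIF without MIF replicate 1. The macrophage genes had medians of -0.30, -0.19 and -0.15 in the same comparisons, which share the carrier arrays.

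Within a replicate number the differences from carrier changed sign between numbers. With sCD74 the median over the 31 genes was +0.06, -0.08 and -0.01 in numbers 1, 2 and 3, with 21, 10 and 13 genes higher. With MIF it was +0.14, -0.10 and +0.18, with 22, 13 and 26 higher. With both it was +0.06, +0.03 and -0.10, with 16, 17 and 10 higher. The medians over all genes lay between -0.01 and +0.03 in these 9 pairs of arrays, and a pair has no replicate. The share of all genes above the 95th percentile of the negative controls was lowest on carrier replicate 1 and sCD74 replicate 3 (21.9% each). Its part in these differences was not tested. The single genes spread from -0.87 to +1.23, widest in number 1.

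Some genes kept a direction in all 3 numbers. With sCD74, 3 of the 31 were above carrier in each number (Tek, Sox17 and Eng) and 6 below (Erg, Sox7, Emcn, Adgrl4, Adgrf5 and Vwf), which is 9.68% and 19.4%, beside 12.4% and 13% of all genes. With MIF, 6 were above (Flt1, Icam2, Robo4, Podxl, Clec14a and Eng) and 1, Vwf, below, which is 19.4% and 3.23%, beside 13.7% and 12.7%. With both, 4 were above (Flt1, Sox18, Ecscr and Eng) and 5 below (Kdr, Tie1, Cd34, Vwf and Aplnr), which is 12.9% and 16.1%, beside 14.2% and 13.3%. These shares lay on either side of the background. The 3 arrays of a treatment did not overlap those of carrier for Eng and Vwf with sCD74, for Vwf with MIF, and for 0 genes with both, beside 5.21%, 6.89% and 8.49% of all genes.

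**Figure D4:**
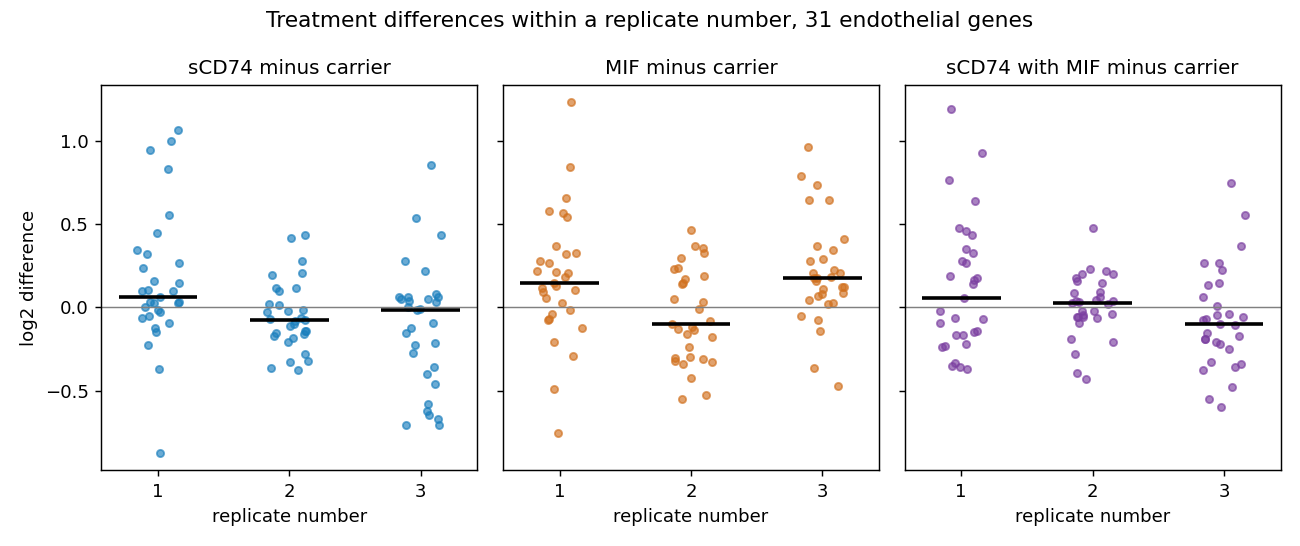
Log2 difference from the carrier array of the same replicate number (y axis) for the 31 endothelial genes (1 point each) under sCD74, MIF and both, by replicate number (x axis), with a bar at the median. Medians lie between -0.10 and +0.18 and change sign between numbers under each treatment.

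Cdh5, the gene with the largest positive difference for number 1, was set out by treatment and number as the extreme case. Within number 1 it differed from carrier by -0.12 with sCD74, -0.20 with MIF and -0.37 with both. Within number 2 the differences were +0.02, -0.34 and +0.16, and within number 3 they were -0.62, +0.18 and -0.48. All of these are smaller than the +1.33 ± 0.17 between numbers 3 and 2.

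The 3 endothelial genes with the smallest p in each comparison, in the fit without the block, are given whether or not they passed. The spread in that fit includes the differences between numbers, so this ranking can pass over genes that differ widely between numbers. The genes with the smallest p in the fit with the block are not named here. Flt1 stood at 10.20, 10.73 and 9.61 with carrier in numbers 1, 2 and 3, at 11.26, 10.64 and 10.46 with sCD74, at 10.78, 10.90 and 10.57 with MIF and at 11.38, 10.82 and 10.36 with both. The carrier arrays of numbers 1 and 3 were the lowest of their numbers, and that of number 2 was not. Its differences from carrier were +0.61 ± 0.30 with sCD74 (SE), +0.57 ± 0.30 with MIF and +0.68 ± 0.30 with both. None passed (limma, adjusted p of 0.999 or above in each). The difference with both was the 1 endothelial value at an unadjusted p under 0.05. Vwf differed from carrier by a negative value with sCD74 (-0.41 ± 0.22) and with MIF (-0.36 ± 0.22), where carrier stood at 8.68, 8.81 and 8.67, sCD74 at 7.81, 8.67 and 8.45, MIF at 7.92, 8.63 and 8.53 and both at 8.52, 8.75 and 8.57. The low values were those of number 1 with either protein alone. Without the arrays of number 1 its difference was -0.18 with sCD74 and -0.16 with MIF.

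Podxl was at 7.18, 6.82 and 7.02 with carrier and 8.41, 7.29 and 7.13 with MIF (+0.60 ± 0.33), with its largest difference in number 1. Only the MIF array of number 1 lay above the negative control median among these 6, and without it the difference was +0.20. Eng was above carrier in all 9 pairs within numbers, by 0.03 to 0.27, with +0.14 ± 0.12 for sCD74 and +0.17 ± 0.12 for both. These pairs share the carrier arrays, and the share of all genes above carrier in every pair is not given here. Ecscr had the third smallest p with both (+0.35 ± 0.33). In the departure from additivity the smallest p belonged to Vwf (+0.66 ± 0.31), Podxl (-0.82 ± 0.46) and Flt1 (-0.51 ± 0.43). Over all MIF cultures Flt1 (+0.32 ± 0.21), Plvap (+0.17 ± 0.14) and Ecscr (+0.23 ± 0.23) came first. Over all sCD74 cultures it was Flt1 (+0.36 ± 0.21), Eng (+0.11 ± 0.08) and Cd34 (-0.19 ± 0.19). None of these passed.

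The other vessel lists had 0 genes called by limma in the comparisons with carrier. At an unadjusted p under 0.05 stood 2 venous and activation genes with MIF and 1 with both, and 1 capillary gene in each of these. The venous and activation list had 7 of 8 genes above carrier with MIF, a median of +0.37, and 7 of 8 with both, a median of +0.39, against 5 of 8 and +0.08 with sCD74. Its smallest p in both comparisons belonged to Vcam1, also named after its values were seen. Vcam1 differed by +0.42 ± 0.15 with MIF and +0.44 ± 0.15 with both (SE), and neither passed. Its means in numbers 1, 2 and 3 were 15.27, 15.37 and 15.50. Which cells carried these transcripts was not tested. Sele, E-selectin, an adhesion molecule of cytokine-activated endothelium, chosen after its values were seen, stood at 8.60, 9.42 and 8.25 with carrier, 8.36, 8.39 and 9.10 with sCD74, 8.73, 10.62 and 10.55 with MIF and 9.31, 9.95 and 9.67 with both. Over numbers 1, 2 and 3 its means were 8.75, 9.60 and 9.39, lowest in number 1. The 6 cultures with MIF share the carrier arrays, and the share of all genes above carrier in all 6 is not given here. Sele was above the carrier array of its number in all 6. Its difference was +1.21 ± 0.45 with MIF (SE) and +0.89 ± 0.45 with both, and neither passed (adjusted p = 1.00 and 0.999). Without MIF replicate 1 the first was +1.83. Without MIF replicate 2, the highest of its MIF values, it was smaller than +1.21. In number 1 the values with carrier and MIF were close, at 8.60 and 8.73. The arterial list had medians of +0.02, +0.03 and -0.03 with sCD74, MIF and both, and the lymphatic list of -0.02, -0.01 and -0.09.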

How the data were processed

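RNA of 12 cultures was hybridised to Affymetrix arrays, which measure each gene by a probe set. The submitters' processing notes name RMA, Transcriptome Analysis Console and Affymetrix Expression Console. Versions and build are not given in the sources used here. The deposited values are log2 expression values. Of 28846 probe sets, 19572 were named through the platform annotation. The probe set with the highest mean stood for a gene, giving 19505 genes. Background was the median of 5222 negative control probe sets on each array.

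Differences came from limma 3.58.1 (lmFit, eBayes; R 4.3.3) fitted over all genes, with Benjamini-Hochberg adjustment within a comparison and a threshold of 0.05. Treatments used the 4 group means, replicate numbers the number plus treatment. The median standard error was 0.17 for treatments and 0.11 for number 1 against the others. On simulated data with 200 changed genes among 19505, a log2 change of 1 was recovered for 73.5% in co-treatment against carrier and 88% for number 1 against the others. The changed genes were drawn at random from all genes, with independent noise and no shared replicate number. The median residual standard deviation over all genes was 0.21 in the treatment fit, whereas that of the carrier arrays was 1.74 for Cdh5. The recovery for treatments therefore does not hold for endothelial genes that differ widely between numbers. Alternatives were the replicate block, centring, quantile normalization, trended and robust variances, a filter on low genes, all probe sets of a gene, and leaving out each array. Named genes were, for each comparison with carrier and each contrast of the treatments, the 3 of the 31 with the smallest p, and all of them for the replicate numbers, with at most 4 called genes of each other list (smallest p) and the 10 other genes most correlated with the endothelial mean. Sequences came from RefSeq promoters on GRCm38.p6. The genes and lists were chosen with earlier results of these data known.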

Additional observations from a re-analysis of the deposited data

How the results depend on the processing

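Number 1 had 22 to 25 genes higher and 1 to 2 lower with each array left out (median +0.82 to +0.94). With no term for treatment, 1 was lower. Over all genes, 822 to 1320 were higher and 1257 to 1794 lower with an array left out, 822 without sCD74 replicate 1. Between numbers 3 and 2, 86 genes were higher and 138 lower over all genes. These became 329 and 405 with trended and robust variances, 250 and 290 among genes above background, and 15 to 80 and 41 to 178 with an array left out (15 without carrier replicate 2, 41 without sCD74 replicate 2). The 31 genes had 4 to 7 calls (4 without carrier replicate 2) and medians of +0.23 to +0.31. With the 95th percentile of the negative controls as background, 3 genes passed on all arrays in place of 18.

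Signs turned for genes near 0. With each array left out, Ptprb in number 1 ran from -0.10 (without sCD74 replicate 1) to +0.26. Between numbers 3 and 2, Ecscr ran from -0.0094 to +0.33, Nos3 from -0.0046 to +0.20, Fabp4 from -0.060 to +0.34, Podxl from -0.20 to +0.045 and Plvap from -0.15 to +0.11. There Plvap was also +0.0066 after centring on the median and +0.012 after quantile normalization, against -0.01 as fitted. The cause was not tested. Calls also changed for genes near the threshold under other settings: Tek and Plvap passed in number 1 among genes above background, and Clec14a fell short after quantile normalization.

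For the treatments, leaving out an array gave medians over the 31 genes of -0.26 to +0.27 with sCD74, -0.20 to +0.47 with MIF, -0.25 to +0.34 with both, -0.11 to +0.32 for all MIF, -0.19 to +0.11 for all sCD74 and -0.41 to +0.27 for additivity. All genes called higher for all MIF then numbered 0 to 1, the 1 without MIF replicate 1. Samples that share a number deviated together at r of 0.097 to 0.647, with 17 of 18 pairs above 0.1, and the labels do not say what a number marks. With the replicate number as a block no endothelial gene was called, with 3, 5, 1, 0, 4 and 2 at an unadjusted p under 0.05 in the 6 comparisons (limma). The share of all genes at that unadjusted p is not given here, so nothing is read from these counts. In the same fit 1 gene of the array, Birc3, was called for all MIF. With the block and trended, robust variances together, chosen after seeing the data, 1 gene was called with MIF, 6 with both and 3 for all MIF, none of them endothelial. Array number and values at background level limit the precision.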
